A study of Mus musculus with 16 samples.

Results

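The Lachnospiraceae NK4A136 group is a genus-level label for gut bacteria of the family Lachnospiraceae. Its members here were all amplicon sequence variants (ASVs, distinct 16S rRNA gene sequences) that the deposited feature table assigns to that label, 51 of 1330 ASVs. They held 64972 of 948231 reads, or 6.85%, and 46.3% of the reads of the family, which had 253 ASVs. ASVs are numbered by their total reads over all libraries, so that asv1 is the most abundant sequence of the series and asv12 the most abundant member.

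The data are 16 stool libraries in 4 groups of 4, sequenced over the V3 and V4 regions. WT healthy are wild-type mice at time point 0, and KO healthy are Msc knock-out mice at time point 0. WT DSS and KO DSS are mice of the same genotypes at time point 1, with colitis induced by dextran sulfate sodium (DSS), which the condition label spells "DDS". Msc codes for the transcription factor musculin. The strain, sex, age and caging of the mice, the kind of knock-out allele and the DSS dose are not given in the sources used here. The effect of DSS and that of time cannot be told apart in this design, and neither can genotype and cage. Replicates carry the numbers 0 to 3 of the labels, which do not say that a number is 1 animal at both times, so p-values measure the spread between these samples.

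Lachnospiraceae are anaerobic Firmicutes that live close to the mucus of the large intestine. They ferment plant polysaccharides to short-chain fatty acids, among them butyrate, which the cells of the colon lining use as fuel. The NK4A136 label is common in laboratory mice, is known mostly from sequence and covers many lineages. An ASV resolves lineages inside such a label, but a genome can carry more than 1 version of the 16S rRNA gene, so an ASV is not the same as a strain.

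The libraries held 49253 to 70577 reads, of which 1048 to 15257 belonged to members. A count of 0 allows a share of up to 0.00425% to 0.00609%, that of 3 reads, depending on the library. This floor, each interval and each fold given as "at least" cover only the error of counting, because reads from the polymerase chain reaction are copies of fewer molecules. Replicates differed from each other by far more than sampling noise, with chi-square values over their member counts of at least 30.9 times the degrees of freedom in each pair within a group. The deposited confidence of the genus assignment ran from 0.707 to 0.999 for members, with a median of 0.915, against 0.988 over all ASVs. The 10 members with a confidence under 0.8 held 55.6% of the member reads, among them asv12 (0.751), asv15 (0.707), asv27 (0.758) and asv30 (0.717). No member carried the name of a cultured species: 26 were listed as an uncultured bacterium, 4 as unidentified, 15 had no species entry and 6 had the name of an order or of the family in its place.

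Many members were seen in few libraries. Of the 51, 18 (35.3%) had reads in 1 library, against 66.4% of all ASVs, 2 (asv30 and asv39) had reads in all 16 and 1 (asv48) in 15. By group, 18 members were seen in KO DSS libraries alone, 6 in KO healthy, 6 in WT DSS and 1 (asv310) in WT healthy. In parts of 51 that is 35.3%, 11.8%, 11.8% and 1.96%, against 6.24%, 4.96%, 57.0% and 4.81% of all 1330 ASVs. Of all ASVs, 711 were seen in WT DSS replicate 1 alone, with 17.1% of its reads, none of them a member, which bears on each share over all ASVs that involves that group. At the other end, 7 members, asv23, asv30, asv39, asv48, asv54, asv81 and asv188, were seen in all 4 groups and held 27.6% of the member reads. The WT healthy and KO healthy groups shared 13 members, which is 92.9% of the 14 seen in WT and 56.5% of the 23 seen in KO mice (69.5% and 72.6% for all ASVs). WT DSS and KO DSS shared 11, which is 55.0% of the 20 and 33.3% of the 33 seen there (19.2% and 57.7% for all ASVs). The map of all members shows this as a block of sequences in nearly every library at the top and scattered group-bound sequences below.

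**Figure D1:**
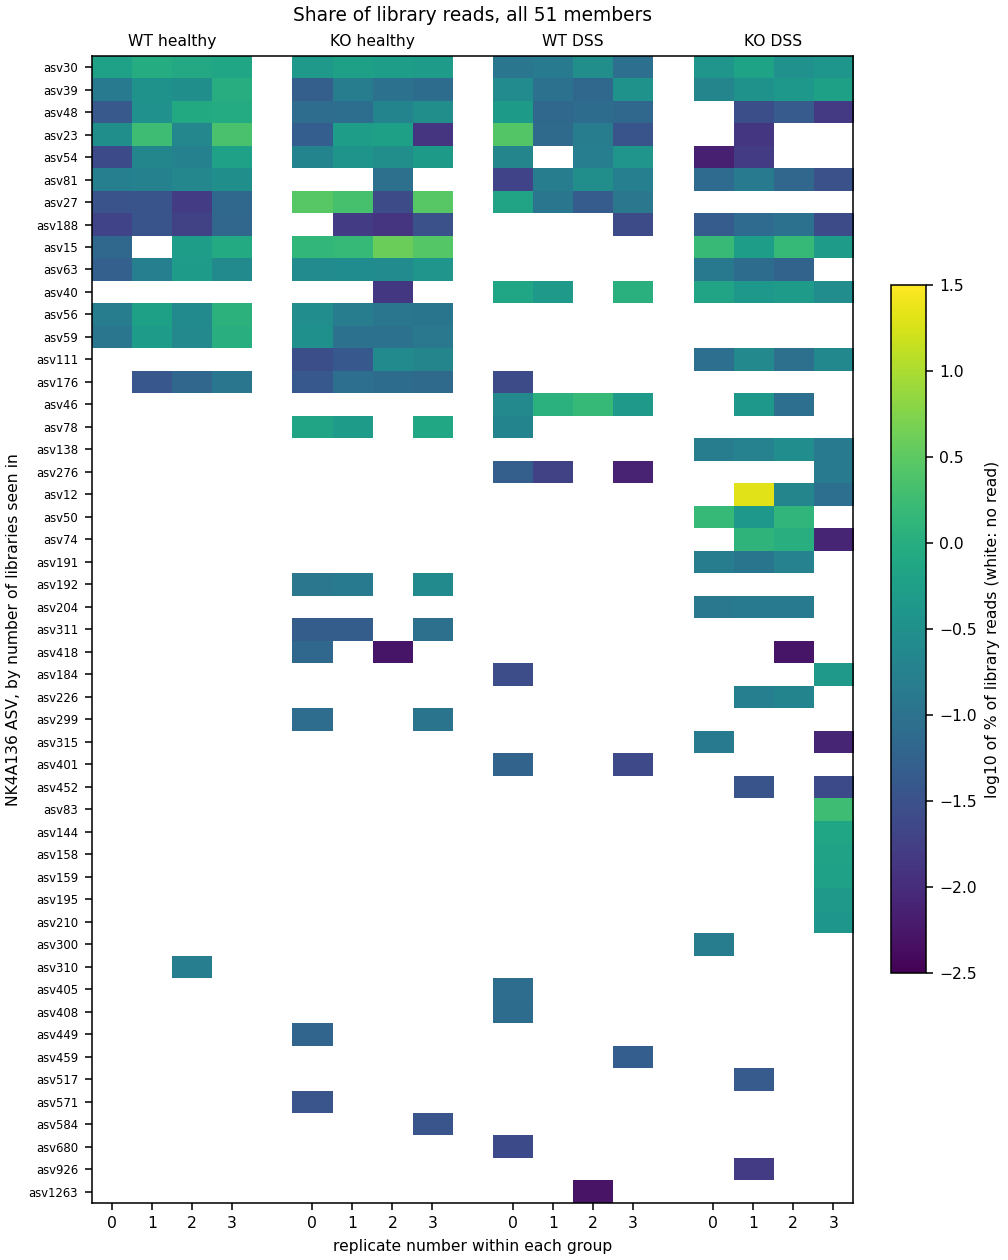
Share of library reads of all 51 NK4A136 ASVs (rows, ordered by the number of libraries with reads) in the 16 libraries (columns, replicate number within group), on a log10 scale of percent, with white for no read. asv30 and asv39 have reads in all 16 libraries, and 6 ASVs from asv83 to asv210 have reads in KO DSS replicate 3 alone.

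Some libraries stood apart in what follows. In KO DSS replicate 1, asv12 took 20.7% of all reads, and the label as a whole 26.2% (95% Wilson interval 25.8% to 26.5%). In KO DSS replicate 3, 6 ASVs seen in no other library (asv83, asv144, asv158, asv159, asv195 and asv210) held 61.2% of the member reads. WT DSS replicate 0 held 5.95% of its reads in members, against 2.28% to 2.89% in the other WT DSS libraries. In KO healthy replicate 2, asv27 was at 0.0266%, against 2.14% to 2.85% in the other KO healthy libraries.

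The summed share of the label was compared first. Values are parts of a library's reads, so fewer cells of a member and more cells of other bacteria cannot be told apart. Members took 1.75%, 5.22%, 4.44% and 9.42% of reads in WT healthy replicates 0 to 3, and 7.19%, 6.79%, 6.67% and 9.25% in KO healthy. They took 5.95%, 2.28%, 2.63% and 2.89% in WT DSS, and 5.43%, 26.2%, 6.66% and 7.57% in KO DSS. The groups overlapped in each of the 4 comparisons of groups. Under DSS that was so only because WT DSS replicate 0 lay above KO DSS replicate 0. The means were 5.21% ± 3.18 (SD, n = 4) in WT healthy, 7.47% ± 1.21 in KO healthy, 3.44% ± 1.70 in WT DSS and 11.5% ± 9.84 in KO DSS. Without asv12 the KO DSS mean was 6.20% ± 0.980, with values from 5.43% to 7.48%.

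None of the comparisons of the summed reads passed. Reads were summed per genus label and fitted over the 66 tested labels with edgeR. KO against WT under DSS came nearest, at 1.48 ± 0.51 (log2 fold change ± SE, edgeR adjusted p = 0.0647). Of all 66 labels, 13.6% passed there. That call depended on the setting: it passed with total counts as the scale (1.69, adjusted p = 0.0344), with DESeq2 (1.68, adjusted p = 0.0181) and without WT DSS replicate 0 (1.69, adjusted p = 0.0197) or KO DSS replicate 0, 2 or 3, while without KO DSS replicate 1 the log2 fold change was 0.67. KO against WT in healthy mice gave 0.91 ± 0.51 (adjusted p = 0.309, 6.06% of labels passed). DSS against healthy gave 0.09 ± 0.50 in WT (adjusted p = 0.937, 22.7% passed) and 0.66 ± 0.51 in KO mice (adjusted p = 0.323, 34.8% passed). The sign in WT was negative with total counts as the scale (-0.57), and that in KO was negative without KO DSS replicate 1 (-0.15) or without asv12 (-0.18). The interaction, which is how much larger the genotype difference was with DSS than without, was 0.57 ± 0.71 (adjusted p = 0.705, 4.55% passed) and -0.23 without KO DSS replicate 1. On log2 shares, the two-sided exact permutation test gave 1.53 for KO against WT under DSS (p = 0.0571, adjusted p = 0.286) and an adjusted p of 0.560 or more for the others. KO against WT in healthy mice was 0.74 on this scale, and -0.82 over members with a confidence of at least 0.8. The smallest p that 4 libraries against 4 allow is 0.0286.

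**Figure D2:**
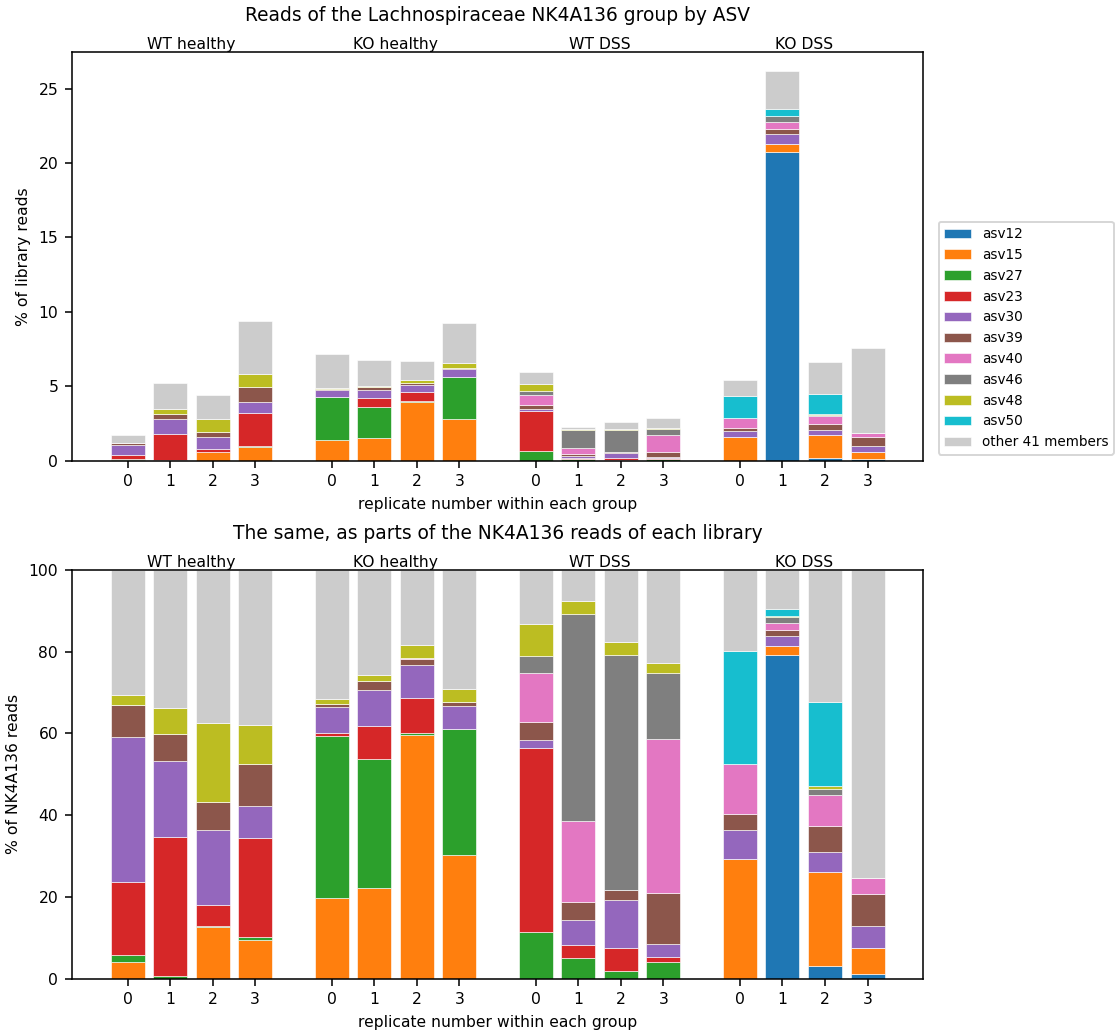
Reads of the 10 most abundant NK4A136 ASVs (colours) and of the other 41 members together (light grey) in each library, as % of library reads (top) and as % of NK4A136 reads (bottom), by group and replicate number. The tallest bar, KO DSS replicate 1 at 26.2%, is mostly asv12. asv23 leads libraries of both WT groups and asv15 libraries of both KO groups.

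Although the sums did not pass, the sequences behind them differed. Distances between libraries were taken on the share of each ASV within the NK4A136 reads, as Bray-Curtis distances, where 0 means the same make-up and 1 no ASV in common. KO and WT healthy libraries lay 0.657 apart on average, against 0.343 within these groups. KO and WT libraries under DSS lay 0.860 apart, against 0.638 within. DSS and healthy libraries lay 0.709 apart in WT (0.453 within) and 0.772 apart in KO mice (0.527 within). In each of the 4 comparisons the observed grouping gave the largest gap of all 35 splits into 4 and 4, a one-sided exact permutation p of 0.0286 (adjusted p = 0.0286), the smallest possible. For DSS against healthy, leaving out 1 WT healthy library, any of the 4, or KO healthy replicate 0, 1 or 3 raised the adjusted exact permutation p to 0.0571, with gaps of 0.155 to 0.226. KO DSS libraries were the least alike, at 0.716 on average, although replicates 0 and 2 lay 0.282 apart. WT DSS replicate 0 was nearer to the WT healthy libraries (0.625) than to the other WT DSS libraries (0.689). With members of a confidence of at least 0.8 alone, a choice made after the data had been seen, the healthy genotype gap was 0.11 in place of 0.31 (exact permutation, adjusted p = 0.0857).

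**Figure D3:**
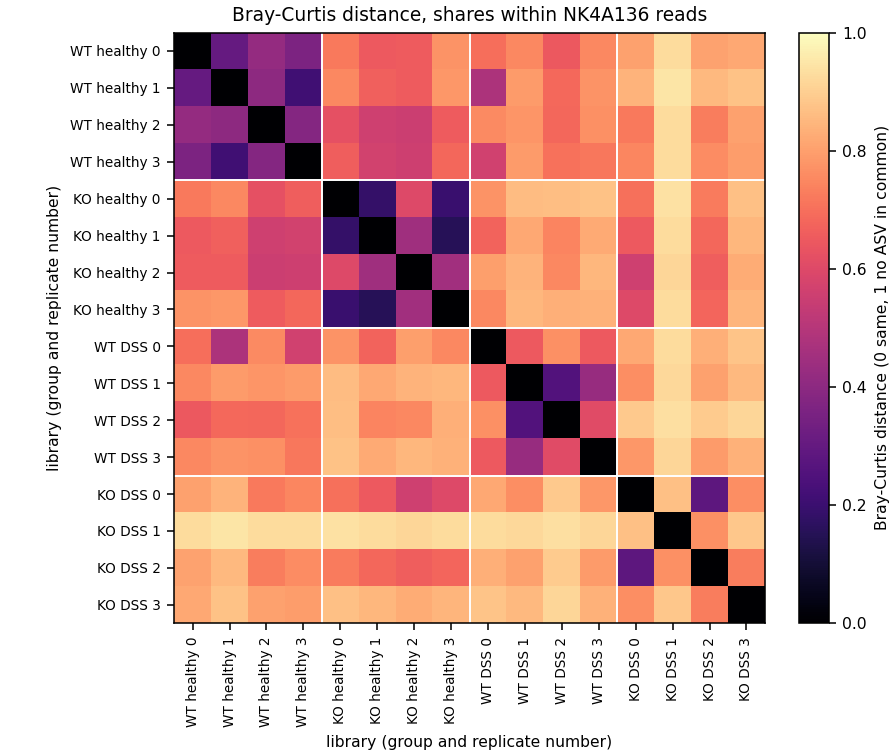
Bray-Curtis distance between the 16 libraries (rows and columns, by group and replicate number), computed on ASV shares within NK4A136 reads, dark for alike and light for unlike. The healthy blocks are the darkest, with means of 0.346 within WT and 0.339 within KO, and KO DSS replicate 1 is far from all others.

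The number of ASVs behind the label averaged more in KO than in WT libraries, short of the threshold. Reads of 12, 12, 14 and 13 members were seen in WT healthy replicates 0 to 3, and of 19, 16, 16 and 18 in KO healthy. The healthy groups did not overlap, and at an equal depth of 1048 member reads their means were 12.7 ± 0.951 and 17.0 ± 1.64, a difference of 4.29 (two-sided exact permutation p = 0.0286, adjusted p = 0.114). Under DSS 17, 9, 9 and 13 members were seen in WT and 15, 22, 18 and 21 in KO libraries, a difference of 6.10 at equal depth (exact permutation p = 0.0571, adjusted p = 0.114). DSS minus healthy was -0.77 in WT and 1.05 in KO mice (exact permutation, adjusted p = 0.657 each). After adjustment over the 4 comparisons none passed. The Shannon index within the label, which also weighs evenness, averaged 2.13 ± 0.165 in WT healthy and 1.93 ± 0.236 in KO healthy mice. With DSS it averaged 1.71 ± 0.248 in WT and 1.98 ± 0.659 in KO mice, and neither difference passed (exact permutation, adjusted p = 0.571 and 0.610).

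Single members were then tested with edgeR, in 1 fit over the 308 ASVs that had 5 or more reads in 4 or more libraries. Of the members, 19 entered that fit and 32 did not. The 19 held 94.1% or more of the member reads of each healthy and WT DSS library, but 61.9%, 12.2%, 53.0% and 31.0% in KO DSS replicates 0 to 3, so that the tests say least about that group. Fitted fold changes of an ASV without reads in a group depend on the prior count, and for these the bound is given. Of the 19, asv138 met the filter only through its KO DSS libraries, asv46 only with its WT DSS libraries and asv78 only with its KO healthy libraries. asv276, named here for this reason alone, met it only with its WT DSS and KO DSS libraries together, and it passed in no comparison. A call of asv138, asv46 or asv78 as higher there follows in part from the filter. Their values are thus given as a description, without a p, though they stand in the counts.

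**Figure D4:**
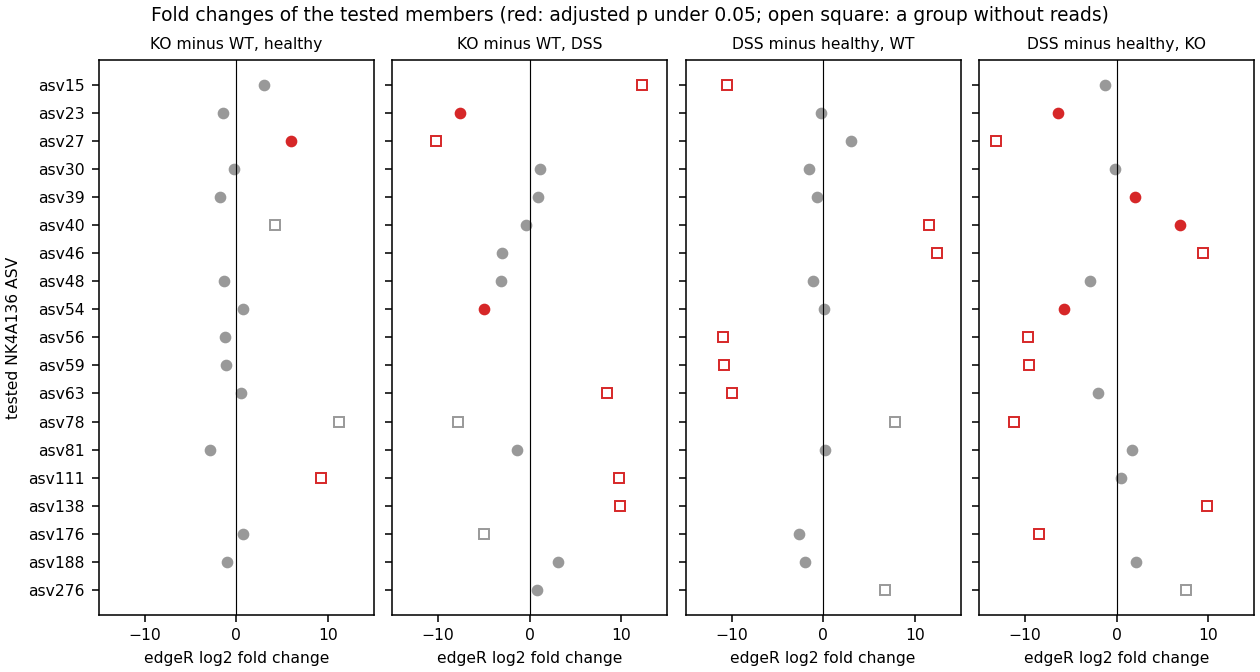
edgeR log2 fold changes of the 19 tested NK4A136 ASVs (rows) in 4 comparisons (panels). Red marks an adjusted p under 0.05, an open square a member without reads in 1 of the groups (its fitted value depends on the prior count), and no mark a member without reads in both. Red marks lie on both sides of 0 in every panel but KO minus WT in healthy mice, where the 2 are higher.

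Between KO and WT in healthy mice, 2 of 19 members passed, both higher in KO (3.25% of all 308 tested ASVs were higher and 3.90% lower, 7.14% together). The first was asv27, at 0.0334%, 0.0345%, 0.0155% and 0.0678% of reads in WT healthy replicates 0 to 3 and 2.84%, 2.14%, 0.0266% and 2.85% in KO healthy. It was high in 3 of 4 KO libraries and at the WT level in replicate 2. Its log2 fold change was 5.95 ± 1.28 (SE, adjusted p = 0.0209). The call was lost when WT healthy replicate 0, 1 or 2 or KO healthy replicate 1 or 3 was left out, with a highest adjusted p of 0.0719. The second, asv111, had no read in WT healthy mice and 0.0294%, 0.0394%, 0.252% and 0.207% in KO healthy, at least 26.0-fold higher (adjusted p = 0.00792). It was also the 1 member seen in all libraries of one healthy group and in none of the other, where 2.56% of 234 ASVs with reads in at least 4 of the 8 libraries were seen in all KO libraries alone and 4.27% in all WT libraries alone. Of the member reads of KO healthy libraries, 11.7% ± 5.66 were in 10 members without a read in WT healthy mice. Over all ASVs that share was 3.46% ± 1.90. The reverse share was 0.918% ± 1.84, or 0 without WT healthy replicate 2, against 6.74% ± 0.774 over all ASVs.

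Within the KO healthy group, some other members had reads only in libraries where asv27 was high. The sequences asv78, asv192 and asv311, the last 2 chosen after their values had been seen, had reads in KO healthy replicates 0, 1 and 3 and none in replicate 2. Together with asv27 they made up 51.6%, 41.7%, 0.399% and 43.0% of the member reads in KO healthy replicates 0 to 3. In replicate 2 the leading member was asv15, with 59.6% of member reads. Over all groups asv15 ranked second among members: it took 0.0702%, 0%, 0.560% and 0.893% of reads in WT healthy and 1.42%, 1.51%, 3.98% and 2.80% in KO healthy mice. These did not overlap, but the change did not pass (log2 3.03 ± 1.26, adjusted p = 0.172). WT healthy libraries were led by asv30, asv23 or asv48. Their asv23, at 1.15% ± 1.04 against 0.301% ± 0.312 in KO healthy mice, did not pass either (log2 -1.44, adjusted p = 0.713).

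**Figure D5:**
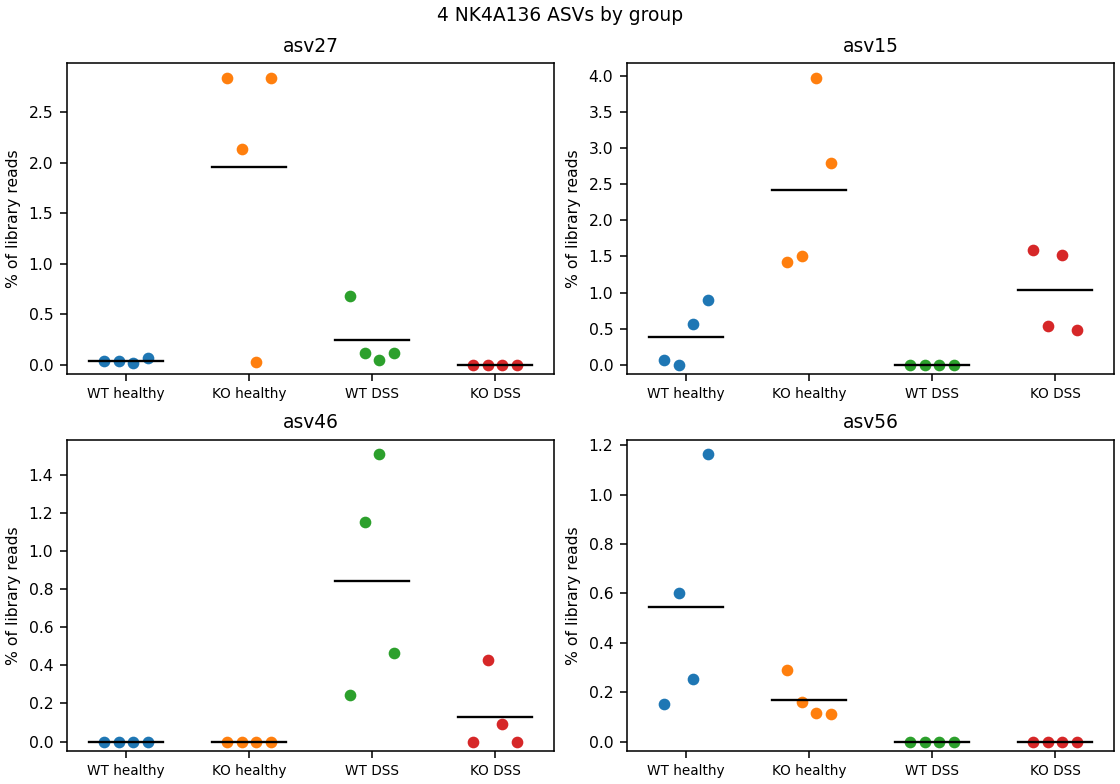
Share of library reads of asv27, asv15, asv46 and asv56 (panels, % of library reads) in each library (points) of the 4 groups, with lines for the group means. asv27 and asv15 are highest in KO healthy, asv46 has reads only with DSS, and asv56 only in healthy mice.

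DSS in WT mice went with 2 of 19 members higher and 4 lower (4.55% and 12.7% of all tested ASVs, 17.2% together). The 4 lower ones, asv56, asv59, asv63 and asv15, had no read in any WT DSS library. For asv56 the healthy WT libraries held 0.150%, 0.603%, 0.255% and 1.16%, at least 110-fold lower with DSS (adjusted p = 0.000592), or 67.9-fold without WT healthy replicate 3. For asv63 they held 0.0535%, 0.169%, 0.519% and 0.261%, at least 50.6-fold lower (adjusted p = 0.00208), with a healthy mean of 0.250%, or 0.161% without WT healthy replicate 2. The fall of asv15 was at least 76.9-fold (adjusted p = 0.00272), from a healthy mean of 0.381%, or 0.210% without WT healthy replicate 3. asv46 had no read in healthy mice of either genotype and 0.245%, 1.15%, 1.51% and 0.466% in WT DSS libraries, at least 166-fold higher than in WT healthy. asv40 rose from no read to 0.703%, 0.456%, 0% and 1.10%, at least 111-fold (adjusted p = 0.00493), with WT DSS replicate 2 at 0. The leading member with DSS was asv46 in replicates 1 and 2, asv40 in replicate 3 and asv23 in replicate 0.

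On average 52.6% ± 19.7 of the member reads of WT DSS libraries were in ASVs without a read in WT healthy mice, from 24.8% in replicate 0 to 71.4%. Over all ASVs that share was 14.3% ± 8.27 of the library's reads. In the other direction, 30.5% ± 8.21 of the member reads of healthy libraries were in ASVs without a read in WT DSS mice, against 10.3% ± 1.18 over all ASVs. By the strictest count, asv46 was seen in all WT DSS and no WT healthy library (3.30% of 212 ASVs), and asv56, asv59 and asv63 the other way round (12.3%). The median log2 fold change of the 17 tested members with a read in either group was -0.65, as fitted and also with members of a group without reads at their bound. Over all 283 such ASVs it was -0.78 as fitted and -0.65 at the bound.

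DSS in KO mice went with 4 of 19 members higher and 7 lower (11% and 17.9% of all tested ASVs, 28.9% together). The lower ones were asv23, asv27, asv54, asv56, asv59, asv78 and asv176. For asv27, the fall from 1.96% ± 1.33 in KO healthy to no read in 4 KO DSS libraries was at least 397-fold (adjusted p = 0.000323). asv56 fell at least 34.4-fold, from 0.290%, 0.159%, 0.117% and 0.113% (adjusted p = 0.000550), so that it had reads in all 8 healthy libraries and in none with DSS. asv54, at 0.204%, 0.374%, 0.302% and 0.475% in KO healthy mice, was at 0.00708%, 0.0154%, 0% and 0% with DSS (log2 -5.71 ± 1.59, adjusted p = 0.0145). asv23 had reads in 1 KO DSS library, at 0.0137% (log2 -6.37, adjusted p = 0.0215, not passed without KO DSS replicate 0, 2 or 3). asv78, with no read in KO DSS mice, was at least 101-fold lower. Its call was lost without 7 of the 8 libraries in turn, all but KO healthy replicate 2, which had no read of it. The fall of asv176, at least 14.6-fold, passed (adjusted p = 0.0144) but not with the replicate block (0.0583).

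The 4 that rose in KO mice with DSS were asv40, asv46, asv138 and asv39. asv40 was at 0.674%, 0.432%, 0.502% and 0.291% with DSS and, in healthy KO mice, at 0.0142% in replicate 2 and at 0 elsewhere (log2 6.93 ± 1.91, adjusted p = 0.0167). asv46 rose in 2 of 4 libraries, to 0.429% and 0.0920%, at least 23.9-fold, or 5.63-fold without KO DSS replicate 1. It did not pass without KO DSS replicate 1 or KO healthy replicate 0, 2 or 3, nor with only the groups compared. asv138 had no read in the 12 other libraries of the series and 0.150%, 0.185%, 0.287% and 0.141% in KO DSS mice, at least 35-fold higher than in KO healthy. asv39, present everywhere, went from 0.0518%, 0.159%, 0.101% and 0.0828% to 0.210%, 0.362%, 0.426% and 0.593%, or log2 2.02 ± 0.68 (adjusted p = 0.0373). Leaving out 1 library ended this call in 6 of 8 cases, all but KO healthy replicate 1 and KO DSS replicate 0. It was also lost with no filter (adjusted p = 0.697), with a filter of 20 reads (0.0506) and with the replicate block (0.136).

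On average 64.1% ± 21.8 of the member reads of KO DSS libraries, from 40.9% to 90.1%, were in ASVs without a read in KO healthy mice, against 19.6% ± 7.90 over all ASVs. Those of KO healthy libraries without a read in KO DSS mice took 40.7% ± 25.0, from 4.84% in replicate 2 to 63.2%, against 11.3% ± 2.63. No test compared the share of new sequences in WT with that in KO mice. asv138 was seen in all KO DSS and no KO healthy library (6.64% of 226 ASVs), and asv27, asv56, asv59 and asv176 the other way round (15.9%). The median log2 fold change of the 19 tested members was -1.25, as fitted and at the bound, against -0.14 and 0 for all 296 ASVs with a read in either group.

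The 18 members of KO DSS mice alone made up 72.8% of that group's member reads, pooled over its 4 libraries. That pool leans on KO DSS replicate 1, with 15257 member reads, 12090 of them asv12. Replicates 0, 2 and 3 had 3835, 3692 and 4580 member reads. Of these 18, asv50 led replicates 0 and 2, asv12 replicate 1 and asv83 replicate 3. asv12 was at 0%, 20.7%, 0.211% and 0.0909% of reads in KO DSS replicates 0 to 3, with a mean of 5.26%, or 0.101% without replicate 1. Together with asv74, which was chosen after its values had been seen and was found in the same 3 libraries, it took 84.1% of the member reads in replicate 1, 18.3% in replicate 2 and 1.31% in replicate 3. asv50 was at 1.5%, 0.435%, 1.38% and 0%. With asv191 and asv204, also chosen after their values had been seen and found in the same 3 libraries, it took 32.8% of the member reads in replicate 0 and 25.6% in replicate 2. asv83, the leader of replicate 3 at 1.83% of reads, had no read elsewhere. These sequences had reads in fewer than 4 libraries and so have no test in the filtered fit.

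Between genotypes under DSS, 4 of 19 members were higher in KO mice and 3 lower (8.77% and 6.17% of all tested ASVs, 14.9% together). asv15 was at 1.59%, 0.542%, 1.52% and 0.488% in KO DSS mice and had no read in WT DSS mice, at least 209-fold (adjusted p = 0.00185). The difference was at least 38.5-fold for asv138 and at least 33.3-fold for asv111, at 0.0921%, 0.240%, 0.0938% and 0.233% (adjusted p = 0.00247). asv63 had reads in 3 of 4 KO libraries, at 0.130%, 0.0823% and 0.0596%, at least 13.7-fold higher (adjusted p = 0.00571, against 0.0567 in a fit of the DSS groups alone). In the other direction asv27, at 0.681%, 0.116%, 0.0469% and 0.120% in WT DSS mice, had no read in KO DSS mice, at least 48.8-fold lower (adjusted p = 0.00175), or 19.1-fold without WT DSS replicate 0. asv23 was lower in KO (log2 -7.56 ± 2.02, adjusted p = 0.0203), from a WT DSS mean of 0.735% that was 0.0875% without replicate 0, and it did not pass without WT DSS replicate 0 or KO DSS replicate 2. asv54 was lower too (log2 -5.01 ± 1.54, adjusted p = 0.0377), and did not pass without 6 of the 8 libraries (all but WT DSS replicate 1 and KO DSS replicate 1), among them WT DSS replicate 3, without which its WT DSS mean of 0.188% was 0.123%. It was also lost with total counts (adjusted p = 0.0515), only the groups compared (0.120) and the replicate block (0.0974). asv40 (log2 -0.36) and asv46 (log2 -3.07), which had risen with DSS, did not pass between the genotypes.

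Of the member reads of KO DSS libraries, 79.2% ± 8.46, from 74.2% to 91.8%, were in 22 members without a read in WT DSS mice. Over all ASVs that share was 16.6% ± 8.82. The reverse share, of WT DSS reads in the 9 members not seen in KO DSS mice, was 8.30% ± 7.68, or 4.59% without replicate 0, against 13.4% ± 7.34 over all ASVs. By the strict count, asv15, asv111 and asv138 were seen in all KO DSS and no WT DSS library (9.78% of 184 ASVs), and asv27 in all WT DSS and no KO DSS library (5.43%). The median log2 fold change of the 17 tested members with a read in either group was -0.36 (also at the bound), and that of all 260 such ASVs 0.20, or 0.17 at the bound. In healthy mice the same medians were 0.15 (-0.14 at the bound) for 16 members and -0.28 (-0.22 at the bound) for 289 ASVs.

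Whether the response to DSS differed between genotypes was tested as an interaction, which 4 of 19 members passed, 2 higher and 2 lower (3.25% and 2.27% of all tested ASVs, 5.52% together). asv27 was one of them: it had no read in KO DSS mice after 1.96% in KO healthy, while in WT mice it stood at 0.0378% ± 0.0218 healthy and 0.241% ± 0.295 with DSS (0.0944% without WT DSS replicate 0), a change that did not pass alone (log2 3.04 ± 1.12, adjusted p = 0.0767). Its interaction (log2 -16.22, adjusted p = 0.000471) passed under each of the 8 other settings and without each library in turn, with a highest adjusted p of 0.00393. asv15 (log2 9.23) and asv63 (log2 7.83), without reads in WT DSS mice but with reads in 4 and 3 KO DSS libraries, each had an adjusted p of 0.0468. asv78 (log2 -19.04), which met the filter only with its KO healthy libraries, passed too and is given without a p. Each of these 3 calls was lost without 15 of the 16 libraries in turn. It stayed without WT healthy replicate 1 for asv15, without KO DSS replicate 3 for asv63 and without KO healthy replicate 2 for asv78. Without 12 of the libraries asv27 was the 1 member that passed, while asv81 was added without KO healthy replicate 2 and asv188 without WT DSS replicate 3, both named after their values had been seen. In asv78 the WT DSS reads came from replicate 0 alone, at 0.198%.

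Reads of asv30 were found in all libraries and those of asv48 in all but 1. asv30 was at 0.622%, 0.964%, 0.810% and 0.731% in WT healthy, 0.461%, 0.588%, 0.534% and 0.518% in KO healthy, 0.117%, 0.138%, 0.304% and 0.0918% in WT DSS and 0.388%, 0.657%, 0.336% and 0.395% in KO DSS libraries. Its WT DSS values lay below all others, yet the change in WT mice did not pass (log2 -1.60 ± 0.56, adjusted p = 0.0617). asv48 was at 0.534% ± 0.417 in WT healthy and 0.169% ± 0.102 in KO healthy mice. With DSS it was at 0.175% ± 0.201 in WT (0.0743% without replicate 0) and 0.0223% ± 0.0193 in KO mice (0.0147% without replicate 2). It passed in no comparison, the nearest being DSS against healthy in KO mice (log2 -2.93, adjusted p = 0.0584). asv56 and asv59 had reads in the same 8 healthy libraries and none elsewhere, and asv59 had 0.617 to 1.11 reads per read of asv56, with a median of 0.879. In 8 libraries in which asv56 ranged from 0.113% to 1.16%, the pair thus kept a nearly even ratio.

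The other tested genus labels of the family, 19 in number, can be set beside the summed NK4A136 label, which passed in no comparison. Their counts are of labels with summed reads, from the fit over 66 labels. They are not of like kind with the counts of single members. In healthy mice 0 of them passed between genotypes (edgeR, with 6.06% of all labels passing), and 0 also with DESeq2 or with limma on centred log-ratios. At an unadjusted p under 0.05 the count was 0 with edgeR and DESeq2 and 2 with limma. Under DSS 2 were higher and 2 lower in KO mice, with 13.6% of all labels passing. Anaerostipes, a genus of butyrate producers, was on the lower side. The Eubacterium xylanophilum group was on the higher side (fitted log2 8.41, edgeR adjusted p = 0.0402). Roseburia, at a fitted log2 of 5.36, did not pass between the genotypes (adjusted p = 0.124). DSS went with 1 higher and 6 lower in WT (22.7% of all labels passed) and 1 higher and 4 lower in KO mice (34.8% passed). The 1 higher in WT was Anaerostipes. Its fitted log2 fold change was 0 between healthy genotypes and with DSS in KO mice, as for a label without reads there. It thus met the filter only through WT DSS libraries. For that reason it is given without a p, though it stands in the counts. Roseburia, also a genus of butyrate producers, was among the lower ones in both (adjusted p = 0.00467 and 0.00514). The median log2 fold change of these labels with DSS was -1.07 in WT and 0 in KO mice, against 0.01 and 0.66 over all 66 labels. As a part of the family's reads, members held 28.0% ± 9.86 in WT healthy, 49.9% ± 3.31 in KO healthy, 36.2% ± 11.1 with DSS in WT and 57.9% ± 18.4 with DSS in KO mice. On that scale the healthy groups did not overlap, from 17.7% to 40.7% in WT and from 46.7% to 53.2% in KO mice, and p was the smallest possible (two-sided exact permutation p = 0.0286, adjusted over 5 comparisons 0.143, below which a single such p cannot go). For the other 4 comparisons the adjusted exact permutation p was 0.214 or more. Members with a confidence under 0.8 held 75.2% to 83.2% of the member reads of KO healthy libraries, and 34.0% to 49.5% in WT healthy. The part of the family's reads was not tested with members of a confidence of at least 0.8 alone.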

How the data were processed

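The V3-V4 amplicon reads of 16 stool libraries were processed by the authors with cutadapt, per the submitters' processing notes. Which denoiser, classifier and database they used is not given in the sources used here. Raw read counts per ASV and library, made by the authors from those reads, form the deposited table. The deposited taxonomy gives a confidence for each ASV as a fraction from 0 to 1, as per the file headers. Placeholder names such as "uncultured" counted as no genus.

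Counts were fitted over all 16 libraries with edgeR 4.0.16 (quasi-likelihood, TMM, features of 5 or more reads in 4 or more libraries) in R 4.3.3, for 308 of 1330 ASVs and 66 of 340 genus labels, with Benjamini-Hochberg adjustment over all tested and a threshold of 0.05. The 4 comparisons of groups share groups with each other. The fitting code was tested on simulated data. Summed shares (log2 of percent plus 0.01), distances and numbers of ASVs were compared with exact permutation tests (scipy 1.17.1), with 70 relabellings or 35 splits, and 4900 relabellings for the interaction.

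Members named are the 10 most abundant, up to 8 per direction past the threshold in each comparison, the leader of each library, and up to 4 seen in all libraries of one group and none of the other. Of the family's other labels, Roseburia, Anaerostipes and the Eubacterium xylanophilum group were among those allowed by name. Members and lists were chosen with earlier results of these data known. Alternatives were other scalings (TMMwsp, poscounts, total counts), DESeq2 1.42.0, limma 3.58.1 on centred log-ratios, other filters, only the groups compared, a replicate block and leaving out each library. For single values they were another pseudocount, denominator or distance. Added after the data had been seen were a confidence minimum of 0.8, leaving out asv12 and leaving out ASVs of 1 library.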

Additional observations from a re-analysis of the deposited data

Results flagged for a closer look

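Within groups of 4, single libraries lay far from the other 3 in several values by Dixon's criterion. Chance meets it in about 1 of 20 groups if values are normally distributed. The criterion is met by construction where the other 3 libraries had no read. That was so for asv78 and asv176 in WT DSS, asv23 and asv83 in KO DSS and asv40 in KO healthy. WT DSS replicate 0 was the highest of its group in the summed share (5.95%, next 2.89%), asv23 (2.68%), asv27 (0.681%), asv48 (0.476%), asv78 (0.198%) and asv176 (0.0265%). KO DSS replicate 1 was the highest in the summed share (26.2%), in the part of its leading ASV among member reads (79.2%), in the part of members among the family's reads (85.2%), in asv12 (20.7%) and in asv23 (0.0137%, with no read in the other 3). asv83 stood at 1.83% in KO DSS replicate 3 and had no read in the others. In KO healthy mice, asv40 was at 0.0142% in replicate 2, asv59 at 0.316% in replicate 0 and asv63 at 0.391% in replicate 3.

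The response to DSS differed between genotypes in the interaction test for asv27 (log2 -16.22, edgeR adjusted p = 0.000471), asv15 and asv63 (9.23 and 7.83, adjusted p = 0.0468 each) and asv78 (-19.04, given without a p). Each of these values rests on a group without reads, so its size depends on the prior count, and asv78 met the filter only with its KO healthy libraries.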

How the results depend on the processing

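Of 913 alternative values, 443 for named members and 306 for sums and counts kept their direction and their side of the threshold, or for counts stayed within 1.5 times, while 95 calls of named members were lost. For the summed reads, KO against WT under DSS passed with poscounts factors (1.68), total counts (1.69), DESeq2 (1.68) and no filter (1.72), and ran from 0.67 to 1.71 when 1 library was left out. Without asv12 it was 0.63 (edgeR adjusted p = 0.292). DSS against healthy in WT turned negative with total counts (-0.57), no filter (-0.24), only the groups compared (-0.15) and without ASVs of 1 library (-0.11), and ran from -0.22 to 0.41 over left-out libraries. The same in KO turned negative with limma (-0.038) and without asv12 (-0.18), from -0.15 to 0.67 over left-out libraries. The interaction was -0.46 with limma and -0.27 without asv12, from -0.23 to 0.83 over left-out libraries. Of the log2 summed shares, DSS against healthy in KO was -0.011 among ASVs of at least 2 libraries and -0.27 without asv12, from -0.19 to 0.57 over left-out libraries. Over the family's reads it was 0.40 in WT, with an interaction of -0.23. KO against WT in healthy mice was -0.82 at a confidence of at least 0.8.

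Members past the threshold between healthy genotypes numbered 4 with DESeq2, 5 with limma and 5 with no filter, against 2, and 1 to 3 over left-out libraries. With no filter there were 20 between genotypes under DSS, against 7, and 25 for DSS in KO mice, against 11, with all 51 members tested. The interaction gave 1 with TMMwsp, 8 with DESeq2 and 2 with the replicate block, against 4, and 1 to 3 over left-out libraries. The make-up gap ran from 0.216 to 0.363 (WT) and 0.155 to 0.330 (KO) for DSS over left-out libraries, some of which missed the threshold (exact permutation, adjusted p = 0.0571), and was 0.11 between healthy genotypes at a confidence of at least 0.8. For the number of ASVs, DSS in WT ran from -2.43 to 0.24 over left-out libraries and was 1.39 at that confidence. DSS in KO was -0.11 without ASVs of 1 library, and the healthy genotype difference of the Shannon index was -0.20. Where no construction of the alternative shows it, the cause was not tested.

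Same-numbered libraries correlated by -0.17 to 0.094 in their deviations from the group means, pairs of different genotype included. Healthy and DSS libraries of the same genotype and number correlated by -0.11 to 0.081. Low correlations cannot exclude that a number is the same animal at both times, so these values do not decide what the replicate number stands for. With that number as a block, 2, 5, 6 and 9 members passed in the 4 comparisons of groups, in the order of the report's healthy genotypes, genotypes under DSS, WT and KO, against 2, 7, 6 and 11. An ASV under the floor of 3 reads in a library cannot be told from an absent one.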
